A study of Mus musculus with 5 samples.

Results

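Collagen chain genes were followed through the scRNAseq libraries of hormone- and PBDE-treated mouse mammary glands. All genes whose symbol had the form Col, a number, a and a number were taken, and those with at least 20 UMIs (unique molecular identifiers, 1 per captured transcript) summed over the 5 libraries were kept. Of the 27998 genes in the matrices 44 had such a symbol and 38 were kept. The genes left out were Col6a4 with 14 UMIs, Col24a1 with 9, Col2a1 with 8, Col10a1 with 3, and Col19a1 and Col22a1 with 1 each. Just inside the limit stood Col28a1 with 20 UMIs and Col26a1 with 22, followed by Col11a2 with 97. By the structure their chains form, the members were 9 fibrillar genes, 6 genes of the type IV basement membrane network, the 2 multiplexins Col15a1 and Col18a1, the anchoring fibril gene Col7a1, 5 type VI genes, 7 fibril-associated genes, 2 short-chain genes, 4 transmembrane genes and 2 others.

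Each library came from the number 4 glands of BALB/cj mice that had been ovariectomized, labelled as 30 weeks old, whose 1 week of treatment began 20 weeks after ovariectomy. All animals, those given vehicle included, lacked ovaries. OVX received vehicle, OVX_E2 received daily injections of 17β-estradiol (E2) at 1 µg per animal, and OVX_E2_P4 received E2 with progesterone (P4) at 0.1 mg per animal. OVX_E2_PBDE received E2, and OVX_E2_P4_PBDE received E2 and P4, with food that held polybrominated diphenyl ethers (PBDEs), a class of flame retardants. This food held BDE-47 at 7.1, BDE-100 at 0.4 and BDE-153 at 0.9 mg per kg. The other groups ate nutrient-matched food with the DMSO vehicle. The glands had been digested with collagenase, freed of the lymph node and of dead cells, and not sorted. Each group was 1 library, the number of mice pooled into it was not given in the sources used here although each treatment was given to more than 1 mouse, and no difference between groups could be tested. Intervals in parentheses are 95% intervals that cover counting error only. Both PBDE libraries carried library numbers from a separate run of numbers, and this and the PBDEs cannot be told apart.

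Collagens are trimers of chains with long glycine-rich repeats. Fibrillar collagens of types I, III and V assemble into the tensile fibrils of stroma, while type IV chains form the sheet-like network of basement membranes under epithelia and around vessels. Types XV and XVIII sit at the border of basement membrane and stroma, and type VII anchors the epithelial basement membrane to stromal fibrils. Type VI forms beaded filaments near cells, and fibril-associated collagens coat the surface of fibrils. In the mammary gland, ducts are wrapped by basal (myoepithelial) cells, a basement membrane and a fibroblast-rich stroma whose matrix is remodelled under ovarian hormones.

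The sequences just upstream of 4 genes on which the following results turn are shown to place these genes in the genome. Col3a1, the most abundant collagen, lies on chromosome 1 at 45311538 to 45349706, Col7a1 on chromosome 9 at 108953586 to 108984875, Col13a1 on chromosome 10 at 61838236 to 61979108 and Col8a1 on chromosome 16 at 57624258 to 57754737 (mm10, the GRCm38 assembly). Sequences are from RefSeq on GRCm38.p6, the 250 bases before the gene start, read 5′ to 3′ in the direction of transcription. Capitals mark matches on either strand to the TATA box (letters TATAAA), to the CCAAT box, to the GC box (letters GGGCGG), to the AP-1 motif (letters TGANTCA) or to the full palindrome of the estrogen response element, and a match on the opposite strand appears as its reverse complement.
Col3a1 promoter, chr1:45311288-45311537, plus strand: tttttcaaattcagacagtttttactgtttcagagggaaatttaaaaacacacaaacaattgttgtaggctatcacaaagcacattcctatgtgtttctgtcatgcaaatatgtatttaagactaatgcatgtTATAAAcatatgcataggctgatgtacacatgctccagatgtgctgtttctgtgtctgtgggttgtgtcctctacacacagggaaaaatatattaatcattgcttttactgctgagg
Col7a1 promoter, chr9:108953336-108953585, plus strand: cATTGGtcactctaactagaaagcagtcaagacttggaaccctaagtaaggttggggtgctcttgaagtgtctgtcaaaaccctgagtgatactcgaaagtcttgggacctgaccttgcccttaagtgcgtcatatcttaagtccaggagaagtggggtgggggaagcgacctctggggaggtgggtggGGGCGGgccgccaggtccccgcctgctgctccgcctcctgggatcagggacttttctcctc
Col13a1 promoter, chr10:61979109-61979358, minus strand: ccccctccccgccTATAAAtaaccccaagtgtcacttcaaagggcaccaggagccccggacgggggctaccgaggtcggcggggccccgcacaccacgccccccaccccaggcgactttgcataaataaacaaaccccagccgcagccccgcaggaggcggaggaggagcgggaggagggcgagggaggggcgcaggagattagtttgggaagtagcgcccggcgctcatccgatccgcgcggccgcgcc
Col8a1 promoter, chr16:57754738-57754987, minus strand: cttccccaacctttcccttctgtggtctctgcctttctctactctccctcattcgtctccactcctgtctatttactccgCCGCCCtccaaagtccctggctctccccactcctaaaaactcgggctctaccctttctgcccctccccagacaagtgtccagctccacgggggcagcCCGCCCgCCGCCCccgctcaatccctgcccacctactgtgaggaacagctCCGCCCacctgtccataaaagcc
RefSeq promoters were found for 31 of the 38 members. The TATA box occurred in 12.9% of these members and in 13.0% of 27025 genes, and the CCAAT box occurred in 35.5% and 34.5%. The GC box occurred in 64.5% of the members and in 32.9% of all genes. The AP-1 motif occurred in 1 member, Col6a1, against 6.87% of all genes, and the estrogen response palindrome in no member and in 0.0629% of all genes. The type IV genes lie in head-to-head pairs. The annotated starts of Col4a1 and Col4a2 on chromosome 8 lie 21 bases apart, and the genes overlap over 22 bases. These are shown here because this shared stretch begins both genes. Matches are not capitalized in it, and it holds the GC box letters GGGCGG.
Col4a1 and Col4a2 shared start, chr8:11312805-11312826: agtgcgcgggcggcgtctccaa
The starts of Col4a3 and Col4a4 on chromosome 1 lie 72 bases apart and those of Col4a5 and Col4a6 on chromosome X 1309 bases apart.

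The libraries held 2233 to 3536 barcodes and 19982067 to 42012988 UMIs, with medians of 5345 to 8698 UMIs per barcode, and 80 barcodes were shared between libraries. Clusters were made and named without any collagen gene, so that levels in them are measurements and not the rule that made them. They held 7248 fibroblast-like, 422 basal-like, 234 endothelial-like, 2534 L-Hor (hormone-sensing luminal), 1084 L-Alv (alveolar luminal) and 461 hematopoietic-like cells, and 2334 cells of mixed clusters were left out. Per library, fibroblast-like cells numbered 883 to 2565, basal-like cells 60 to 148 and endothelial-like cells 27 to 72. All 7 fibroblast markers were detected in fibroblast-like cells, at 22375 CPM in sum (18203 to 26114 over libraries), where CPM is UMIs per 1000000 UMIs of the cells named. The same markers summed to 1011 in basal-like cells (579 to 2556) and to 989 in endothelial-like cells (353 to 1514). Endothelial markers summed to 5002 (4381 to 5298) and pericyte markers to 1506 (1173 to 1662) in endothelial-like cells. Both sets of markers, with at least 3 UMIs each, were held by 199 of 234 endothelial-like barcodes. Endothelial-like levels are therefore those of barcodes that carry RNA of endothelial cells and pericytes together.

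Collagen transcripts were mostly fibroblast transcripts. They made up 1.74% of the UMIs of fibroblast-like cells. The share was 0.298% in endothelial-like, 0.287% in hematopoietic-like, 0.201% in basal-like, 0.0994% in L-Hor and 0.0903% in L-Alv cells. Col3a1 alone gave 36.8% of the collagen UMIs of fibroblast-like cells, Col1a2 25.9% and Col1a1 15.7%. Type I is the main load-bearing collagen, a trimer of products of Col1a1 and Col1a2, and type III is its partner in pliable tissue. Levels are CPM from 3′ counting that does not scale with gene length, with libraries pooled in the sentences on cell types.

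RNA free in the suspension can add UMIs to cells that do not make a transcript, so each level was set beside that in cells not known for collagen. With libraries pooled, Col3a1, Col1a2 and Col1a1 in L-Hor and L-Alv cells stood at 3.37% to 4.32% of their fibroblast-like level. These shares were nearly the same for all 3 genes, and in basal-like cells they were 3.97% to 4.59%. Levels of these genes in epithelial-like cells were therefore read as background. This background differed between libraries. In L-Hor cells the shares of Col3a1, Col1a2 and Col1a1 were 7.90%, 10.07% and 7.55% in OVX, against 2.92%, 2.75% and 2.43% in OVX_E2_P4. In basal-like cells of OVX the genes were less alike, with Col1a2 above Col3a1 at 5.29% and Col1a1 at 6.12%. With libraries pooled, the 3 genes stood at 14.8% to 16.8% in hematopoietic-like cells. The share for Col3a1 there was 28.4% in OVX_E2_PBDE and 30.4% in OVX_E2_P4_PBDE, 20.9% in OVX, 8.36% in OVX_E2 and 5.38% in OVX_E2_P4. Hematopoietic-like barcodes thus carried relatively more fibroblast transcripts in both PBDE libraries and in OVX than in the other libraries. Fibroblast markers summed in hematopoietic-like cells to 3093 CPM (840 to 4397 over libraries), beside 3038 for hematopoietic markers. Where the hematopoietic-like level is subtracted below, it is therefore not a measure of free RNA alone. After thinning every cell to 3000 UMIs, 98.1% of fibroblast-like cells, 60.7% of endothelial-like and 42.2% of L-Hor cells held a Col3a1 UMI, so a share of cells with this gene did not mark a producing cell type.

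**Figure D1:**
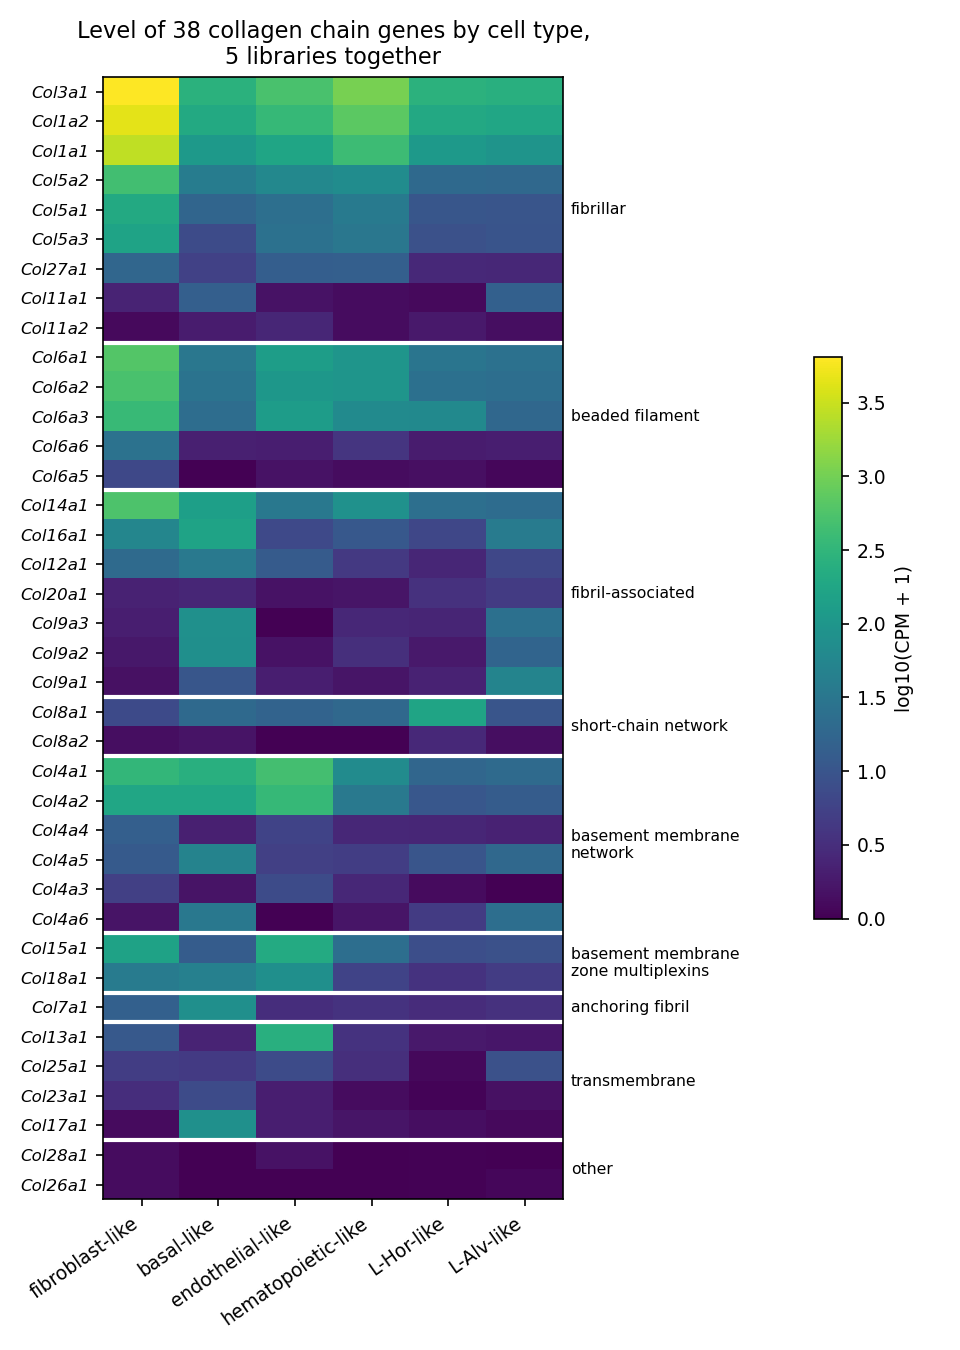
Level of each of the 38 collagen chain genes in 6 cell types, libraries pooled. Rows are genes grouped by collagen class, columns are cell types, and colour is log10 of CPM plus 1. Fibrillar genes other than Col11a1 and Col11a2, and type VI genes, are highest in fibroblast-like cells, Col4a1, Col4a2, Col15a1 and Col13a1 in endothelial-like cells, Col17a1 in basal-like cells, Col9a1 in L-Alv cells and Col8a1 in L-Hor cells.

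The fibrillar genes Col3a1, Col1a2, Col1a1, Col5a2, Col5a1, Col5a3 and Col27a1 were highest in fibroblast-like cells. Their levels there ran from 6398 CPM for Col3a1 to 16.8 for Col27a1. Col5a2, Col5a1 and Col5a3, chains of type V that starts fibrils and limits their width, stood at 449, 205 and 159. The other fibrillar genes, Col11a1 and Col11a2, were rare. Col11a1 stood at 13.8 in L-Alv cells, 13.2 in basal-like cells and 1.38 in fibroblast-like cells. Col11a2 had its highest level in endothelial-like cells on 3 UMIs.

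The 5 type VI genes, Col6a1, Col6a2, Col6a3, Col6a5 and Col6a6, were highest in fibroblast-like cells too, at 603, 512, 372, 5.68 and 26.0. In endothelial-like cells the main chains stood above the level at which Col3a1 and Col1a1 appeared there. Col6a1 reached 21.9%, Col6a2 19.8% and Col6a3 34.2% of the fibroblast-like level, against 6.33% to 8.17% for the type I and III genes. Col6a3 stood apart from its partner chains in L-Hor cells, at 62.3 CPM or 16.8% of its fibroblast-like level, where Col6a1 and Col6a2 stood at 4.76% and 4.78%. This held in the 4 libraries with E2, at 11.6% to 24.0% for Col6a3, but in OVX the shares were 7.37% for Col6a3, 13.0% for Col6a1 and 11% for Col6a2.

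Basement membrane network genes were shared between stroma, vessels and epithelium. Col4a1 and Col4a2, the chains of the common type IV network, stood at 333 and 179 CPM in fibroblast-like cells, 251 and 178 in basal-like cells and 462 and 350 in endothelial-like cells. The ratio of Col4a1 to Col4a2 was 1.86 (1.81 to 1.91) in fibroblast-like cells, 1.41 (1.29 to 1.53) in basal-like cells and 1.32 (1.19 to 1.46) in endothelial-like cells. By library, in the order OVX, OVX_E2, OVX_E2_P4, OVX_E2_PBDE and OVX_E2_P4_PBDE, it was 1.98, 1.82, 1.67, 1.91 and 1.72 in fibroblast-like cells and 1.13, 1.66, 1.40, 1.38 and 1.29 in basal-like cells. In endothelial-like cells it was 1.36, 1.57, 1.16, 1.34 and 1.04. The fibroblast-like ratio was thus the highest of the 3 in each of the 5 libraries. In L-Hor and L-Alv cells Col4a1 stood at 5.04% and 5.97% of its fibroblast-like level, close to the shares of the type I and III genes there. At 3000 UMIs per cell, 70.5% of endothelial-like, 42.9% of basal-like, 42% of fibroblast-like and 3.95% of L-Hor cells held a Col4a1 UMI, and without thinning 91.5%, 71.6%, 54.7% and 11.5%. Median UMIs per cell were 7274, 8896, 5860 and 8705.

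The X-linked pair behaved differently from the pair on chromosome 8. Col4a5 and Col4a6, which form a network typical of smooth muscle and some epithelia, stood at 50.2 and 32.3 in basal-like cells, a ratio of 1.55. Among fibroblast-like cells Col4a5 stood at 11 and Col4a6 at 0.59, a ratio of 18.7. L-Alv cells held Col4a6 at 23.0. Col4a3 and Col4a4, known from kidney glomeruli, were low everywhere, at 4.21 and 13.3 in fibroblast-like cells.

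The multiplexins split by cell type. Col15a1 stood at 154 in fibroblast-like and 208 in endothelial-like cells but at 11.7 in basal-like cells, while Col18a1, whose chain is the source of endostatin, stood at 37.3, 78.0 and 44.7. The ratio of Col15a1 to Col18a1 was 4.11 in fibroblast-like, 2.67 in endothelial-like and 0.261 in basal-like cells. Col13a1, a transmembrane collagen at cell adhesion sites, stood at 251 in endothelial-like cells, 10.4 in fibroblast-like cells and 13.1% of the latter in basal-like cells.

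Several genes were highest in basal-like cells among the named cell types, but not all of them were particular to these cells. Col17a1, the transmembrane collagen of hemidesmosomes that bind basal cells to the basement membrane, stood at 79.5 in basal-like cells, 0.272 in fibroblast-like and 1.07 in endothelial-like cells. At 3000 UMIs 18.2% of basal-like cells held a Col17a1 UMI (49.8% without thinning), and at most 0.434% of any other cell type. Col7a1, the anchoring fibril chain, stood at 76.6 in basal-like cells, against 13.7 in fibroblast-like ones. The fibril-associated genes Col16a1, Col9a3 and Col9a2 stood at 160, 81.5 and 78.5 in basal-like cells, and Col12a1 at 33.8. For Col12a1 the basal-like level was the highest in 3 of 5 libraries. In F4, a fibroblast cluster described below, Col7a1, Col16a1 and Col12a1 stood at 111, 121 and 97.1. Col23a1, a transmembrane collagen, stood at 2.17 in fibroblast-like cells and at 295% of that in basal-like cells. Col14a1, a fibril-associated collagen of soft tissue, was highest in fibroblast-like cells at 558, but its basal-like level of 138 was 24.7% of that, against 4.17% in L-Hor and 3.76% in L-Alv cells.

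Luminal cells were low in collagens with a few exceptions. Col8a1, a short-chain collagen known from vessel walls and the eye, stood at 168 in L-Hor cells and at 6.20 in fibroblast-like cells. Its L-Hor level was 232 in OVX, 172 in OVX_E2, 186 in OVX_E2_P4, 133 in OVX_E2_PBDE and 181 in OVX_E2_P4_PBDE, so it was present in hormone-sensing luminal cells of every library, the vehicle group included. A Col8a1 UMI was held at 3000 UMIs by 35.8% of L-Hor cells (62.5% without thinning). Its partner Col8a2 was near 0, at 1.76 in L-Hor cells. L-Alv cells had the highest level of Col9a1, at 51.2, with Col9a3 at 24.3 and Col9a2 at 16.1. Among the named cell types Col25a1 and Col20a1 also had their highest pooled levels there, at 7.75 and 3.56. For Col25a1 this held in 2 libraries, and its level in the fibroblast cluster F4 was 32.9. Col26a1 and Col28a1 were too rare in the named cells to order them.

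The fibroblast-like cells of all libraries fell into 4 clusters when scaled within library and grouped without collagens. F1, with 3516 cells, was led by Akr1c18, Cxcl13 and Sfrp4. F2, with 1986 cells, was led by Cxcl14, Fabp4 and Vtn, F3, with 952 cells, by Krtdap, Sbsn and Dmkn, and F4, with 794 cells, by Igfbp2, Mfap4 and Crabp1. Pi16, a marker of progenitor-like adventitial fibroblasts, stood at 3914 in F1 and 6416 in F3 and at 447 and 445 in F2 and F4. Postn, which encodes a matrix protein of remodelling stroma, stood at 5537 in F4 and at most 1096 in the others.

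Fibrillar collagen was graded over these clusters. Summed fibrillar chains gave 38804 CPM in F4, 21453 in F2, 8403 in F1 and 4399 in F3. F4 was the highest in every library but OVX, where it stood at 16369 against 21301 in F2. F4 stood at 43718 in OVX_E2, 45148 in OVX_E2_P4, 38924 in OVX_E2_PBDE and 34922 in OVX_E2_P4_PBDE, while F1 reached at most 11373 and F3 at most 6154 in any library. Of 29 members with at least 50 UMIs, 19 had their highest pooled level in F4, 7 in F2, 2 in F3 and 1 in F1, and the order held in each of the 5 libraries for 7, 3, 1 and 0 of them.

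**Figure D2:**
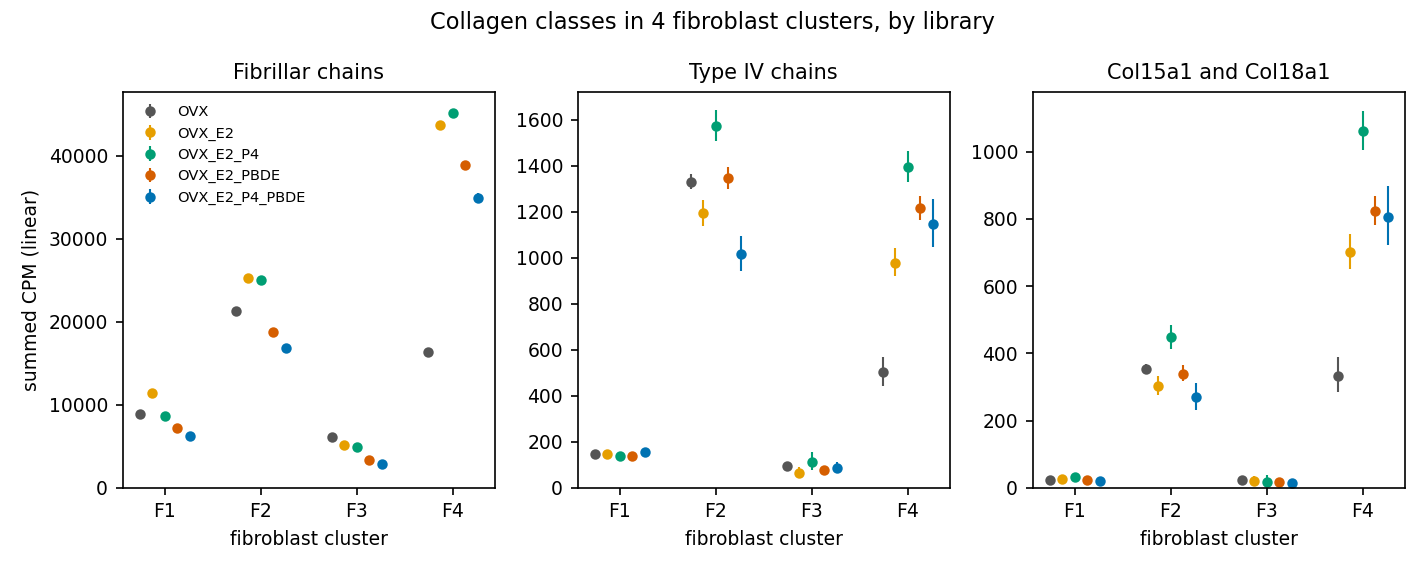
Summed level, in CPM on linear axes, of fibrillar chains, of type IV chains and of Col15a1 with Col18a1 in the fibroblast clusters F1 to F4, 1 point per library with a bar for the 95% counting interval. F4 and F2 lie above F1 and F3 in each panel, F4 of the OVX library lies below F4 of the other libraries in the fibrillar panel at 16369, and type IV chains in F2 lie between 1015 and 1572.

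With libraries pooled, Col4a1, Col4a2, Col15a1 and Col18a1 were above the other fibroblast-like cells in both F2 and F4. In F4 this held in 4 libraries for Col4a1 and Col4a2, whose lowest library ratios were 0.729 and 0.983. Type IV chains summed to 1326 in F2 and 1132 in F4, against 144 in F1 and 84.1 in F3. With libraries pooled, the members that most set F2 apart from all other fibroblast-like cells were Col4a3 at 12.0 times their level, Col4a1 at 5.27 times and Col4a2 at 4.49 times. Each was above 1 in 5 of 5 libraries. Over libraries the ratio ran from 6.11 to 10.0 for Col4a3, 3.69 to 9.23 for Col4a1 and 2.67 to 9.98 for Col4a2. In F2 Col4a1 stood at 834 in OVX, 773 in OVX_E2, 1016 in OVX_E2_P4, 886 in OVX_E2_PBDE and 628 in OVX_E2_P4_PBDE. In F4 Col4a4 and Col4a5 stood below the other fibroblast-like cells, at 0.469 and 0.574 times. The ratio of Col4a1 to Col4a2 was 1.98 in F2 and 1.37 in F4, the latter near the endothelial-like value. At 3000 UMIs 79.2% of F2 and 77.8% of F4 cells held a Col4a1 UMI, against 21.0% of F1 and 12.1% of F3 cells.

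F4 was set apart by collagens that were rare elsewhere in stroma. Col25a1, a transmembrane collagen known from neurons, stood at 76.1 times its level in the other fibroblast-like cells, Col7a1 at 67.4 times and Col13a1 at 28.8 times, each above 1 in 5 of 5 libraries. Col7a1 rested in F4 on 2 UMIs in OVX, or 4.05 CPM. It stood at 97.0 in OVX_E2, 171 in OVX_E2_P4, 105 in OVX_E2_PBDE and 129 in OVX_E2_P4_PBDE. The 4 libraries with E2 thus held anchoring fibril transcripts in F4 fibroblasts above the pooled basal-like level of 76.6. Col15a1 was in 76.8% of F4 and 52.3% of F2 cells at 3000 UMIs, and in 2.73% of F1 and 2.31% of F3 cells.

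F1 and F3 had Col14a1 in place of Col4a1. Col14a1 stood at 696 in F1 and 885 in F3, against 176 in F2 and 401 in F4. Its ratio to all other fibroblast-like cells was 1.68 for F1 (1.18 to 2.43 over libraries) and 1.74 for F3 (1.63 to 1.94). The other leading members of F1 were Col6a5 at 1.45 times, above 1 in 4 libraries, and Col6a6 at 1.42 times, above 1 in all 5. F3 had Col20a1 at 2.27 times (1.18 to 4.17), on 15 UMIs or 2.61 CPM, and Col12a1 at 1.35 times, the latter above 1 in 3 libraries. Type V composition differed too, with a ratio of Col5a3 to Col5a2 of 0.533 in F2, 0.353 in F3, 0.292 in F1 and 0.197 in F4, and Col1a1 to Col1a2 was 0.769 in F4 against 0.466 in F3.

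The shares of the clusters differed between libraries, which bears on sums over all fibroblast-like cells. F4 made up 4.41% of fibroblast-like cells in OVX, 14.9% in OVX_E2, 20.8% in OVX_E2_P4, 13.2% in OVX_E2_PBDE and 10.3% in OVX_E2_P4_PBDE. F2 made up 42.3%, 21.5%, 24.7%, 16.8% and 16.1% in the same order. In F4 of OVX, Igfbp2 stood at 111, Mfap4 at 437, Crabp1 at 429, Cthrc1 at 80.9, Postn at 1020 and Spon1 at 997. Each was above its level in the other OVX clusters. F4 of the other libraries held Igfbp2 at 323 to 621 and Mfap4 at 959 to 1444. Cthrc1 stood there at 385 to 638 and Postn at 3759 to 7213, so all of these were lower in OVX. Crabp1 and Spon1 were not, at 282 to 523 and 730 to 1163 in the other libraries. The 113 cells grouped as F4 in OVX thus carried some of its leading genes at a lower level.

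The first comparison, of OVX_E2 with OVX, addresses what estradiol alone did in the depleted gland. Fibrillar chains of fibroblast-like cells were 1.38 times as high with E2 (1.37 to 1.39), and basement membrane network chains were 0.814 times as high (0.781 to 0.848). Of 25 members with at least 50 UMIs over both libraries, 7 were higher and 3 lower by at least 1.5-fold, while 8.29% of 10454 genes were higher and 4.92% lower. The other 13 members were too rare to be counted. The median log2 ratio was 0.24 over the members and 0.05 over all genes. With 1 library each, these are differences between libraries, and the 5 comparisons described here share libraries.

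Col7a1 differed most between OVX and OVX_E2. It had 11 UMIs or 0.801 CPM in OVX and 107 UMIs or 16.1 in OVX_E2, a ratio of 20.1 (10.8 to 41.5). Col13a1 went from 3.20 to 14.7, a ratio of 4.60 (3.19 to 6.73), and Col18a1 from 18.6 to 46.6, a ratio of 2.50 (2.11 to 2.97). The fibril-associated Col12a1 and Col16a1 stood at 1.68 and 1.65 times, Col27a1 at 1.63 times and Col1a1 at 1.52 times their OVX levels. Col1a1 stood at 2538 in OVX and 3861 in OVX_E2, Col3a1 at 6106 and 8259, and Col1a2 at 4110 and 5603, so that the last 2 genes were 1.35 and 1.36 times as high and below the limit.

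The lower members were Col4a3, Col6a5 and Col4a4. Col4a3 stood at 9.54 in OVX and 1.5 in OVX_E2, a ratio of 0.158 (0.0739 to 0.299), and 112 of its 131 UMIs in OVX lay in F2. Col6a5 stood at 0.533 and its level in OVX was 7.06, and Col4a4 stood at 0.614 times its OVX level of 18.9. Col4a1 and Col4a2 were at 0.804 and 0.871 times, and Col14a1 at 0.791 times.

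Within clusters the difference of OVX_E2 from OVX was uneven. Fibrillar chains were 2.67 times as high in F4, 1.29 times in F1, 1.19 times in F2 and 0.834 times in F3. Within F4, 18 of 19 members counted were higher by at least 1.5-fold and 0 lower, where 13.4% of 3398 genes were higher and 12.5% lower. Col3a1 stood at 6449 and 18817 in F4 of the 2 libraries, and Col1a1 at 3297 and 10476, ratios of 2.92 and 3.18. The 1 counted member that was not higher was Col14a1, at 1.06 times.

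Type IV genes were among those higher in F4. Col4a1 was 2.08 times (1.72 to 2.53) and Col4a2 2.14 times as high in F4 of OVX_E2, although type IV chains over all fibroblast-like cells were lower. In F2, which held most type IV transcripts of OVX, Col4a1 stood at 834 and 773 and the cluster's share of cells was 42.3% and 21.5%. Stress genes, known to respond to tissue dissociation, summed to 8926 CPM in fibroblast-like cells of OVX and 6943 in OVX_E2, and their part in these ratios was not tested. With a mitochondrial limit of 5%, a cluster of 642 OVX fibroblasts was named mixed and type IV chains turned to 1.59 times, while with the 10% names kept the ratio was 0.810.

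**Figure D3:**
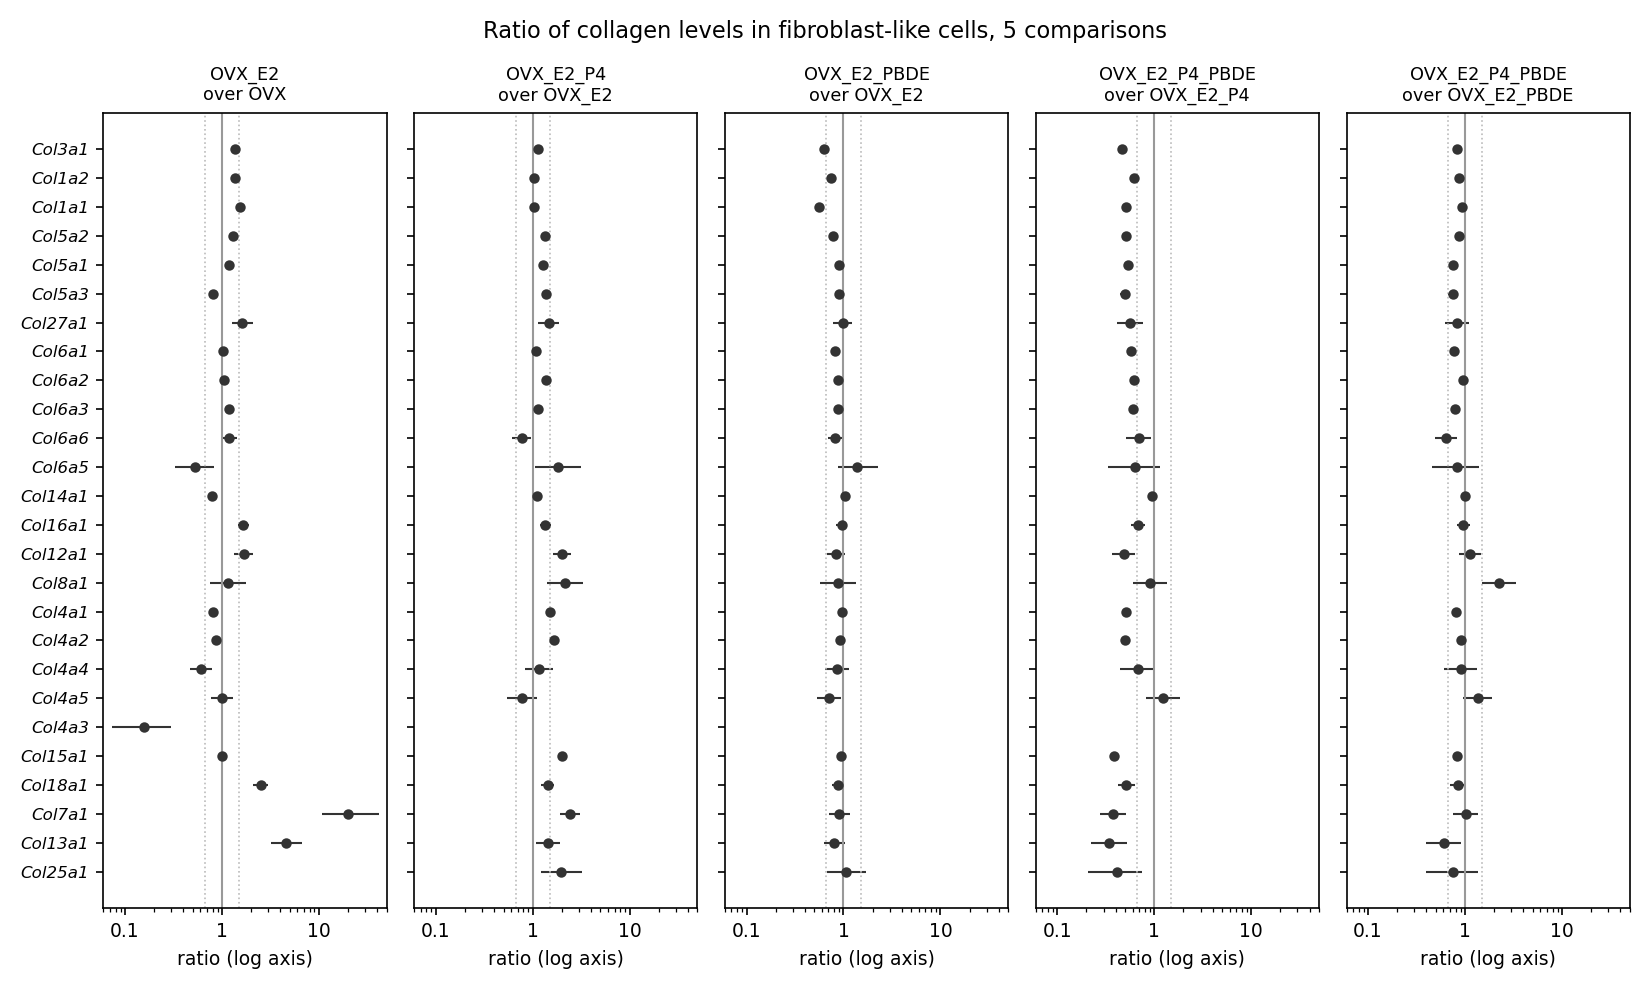
Ratio of the level of each counted member in fibroblast-like cells between 2 libraries, 1 panel per comparison, on a log axis. Points are ratios, bars 95% counting intervals and dotted lines 1.5-fold in either direction. With E2 added, Col7a1 lies farthest right at 20.1, and with PBDEs added to E2 and P4, 19 members lie left of the lower line.

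The comparison of OVX_E2_P4 with OVX_E2 addresses what progesterone added to estradiol. Col4a1, Col4a2 and Col15a1 were higher while the type I and III genes were nearly level. Summed type IV chains were 1.53 times (1.46 to 1.60) and multiplexins 1.88 times as high (1.75 to 2.02), and fibrillar chains 1.08 times (1.08 to 1.09). Of 25 members 8 were higher by at least 1.5-fold and 0 lower, against 4.1% and 4.57% of 9625 genes, and the median log2 ratio was 0.45 against −0.06 over all genes.

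Col15a1 went from 141 CPM in OVX_E2 to 285 in OVX_E2_P4, a ratio of 2.03 (1.87 to 2.20). Col4a1 went from 300 to 454 and Col4a2 from 165 to 272, ratios of 1.51 and 1.65. Col7a1 went from 16.1 to 39.2, a ratio of 2.43 (1.92 to 3.09), the largest of this comparison. The others past the limit were Col8a1 at 2.15 times, Col12a1 at 1.99, Col25a1 at 1.97 and Col6a5 at 1.81 times. Fibroblast-like Col8a1 stood at 5.42 in OVX_E2 and 11.6 in OVX_E2_P4, and its L-Hor level was 3167% and 1600% of these. The part of L-Hor RNA in its ratio was not tested. Col18a1 at 1.42 and Col4a4 at 1.16 times stood below the limit. Col1a1 and Col1a2 were both 1.02 times and Col3a1 1.13 times as high. Col6a6 at 0.770 and Col4a5 at 0.778 were the smallest ratios.

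The makeup of the fibroblasts also differed between these 2 libraries, and its part in the ratios was not tested. F4 made up 14.9% of fibroblast-like cells in OVX_E2 and 20.8% in OVX_E2_P4. When the 4 clusters were given equal weight, 3 in place of 8 members were higher. Fibrillar chains within clusters were 0.758 times as high in F1, 0.990 in F2, 0.968 in F3 and 1.03 in F4. In F4, Col15a1 stood at 567 without P4 and 898 with it, and Col4a2 at 394 and 604. With a mitochondrial limit of 5%, which left 610 in place of 946 fibroblast-like cells in OVX_E2_P4 because a cluster of 322 was named mixed, the type IV ratio turned to 0.764, and with the 10% names kept it was 1.5.

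The comparison of OVX_E2_PBDE with OVX_E2 addresses PBDEs added to estradiol. Col1a1 and Col3a1 were the members below the 1.5-fold limit. Fibrillar chains were 0.660 times (0.655 to 0.665) and type IV chains 0.934 times as high (0.896 to 0.97). Of 25 members 0 were higher and 2 lower, Col1a1 and Col3a1, against 1.07% and 8.47% of 10431 genes, so the share of lower members was near that of all genes. The median over members, −0.20, was close to that over all genes, −0.18, so the ratios of this comparison are shifted downward as a whole.

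Col1a1 stood at 3861 in OVX_E2 and 2138 in OVX_E2_PBDE, a ratio of 0.554 (0.545 to 0.563). Col3a1 stood at 8259 and 5237, a ratio of 0.634 (0.627 to 0.641), and Col1a2 at 5603 and 4162, a ratio of 0.743. The chains of type I thus did not move equally, and Col1a1 to Col1a2 was 0.689 in OVX_E2 and 0.514 in OVX_E2_PBDE. Col4a5 had the next smallest ratio among the extremes at 0.702, and the largest were Col6a5 at 1.39, Col25a1 at 1.07 and Col14a1 at 1.04. Within clusters fibrillar chains stood at 0.633 in F1, 0.744 in F2, 0.657 in F3 and 0.890 in F4. With equal cluster weights neither gene was past the limit. With the hematopoietic-like level subtracted, 9 members were lower. For Col3a1 that level was 28.4% of the fibroblast-like one in OVX_E2_PBDE and 8.36% in OVX_E2, so the subtraction was uneven.

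The comparison of OVX_E2_P4_PBDE with OVX_E2_P4 addresses PBDEs added to both hormones, and here the collagens differed most broadly. Fibrillar chains were 0.522 times (0.516 to 0.528), type IV chains 0.523 times (0.493 to 0.554) and multiplexins 0.410 times as high (0.373 to 0.451). Of 25 members 19 were lower by at least 1.5-fold and 0 higher, against 9.06% and 2.66% of 8874 genes. The median log2 ratio was −0.89 over members and −0.09 over all genes.

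The smallest ratios were those of Col13a1 at 0.345, Col7a1 at 0.378 and Col15a1 at 0.386. Col15a1 stood at 285 in OVX_E2_P4 and 110 in OVX_E2_P4_PBDE. Col3a1 went from 9312 to 4344, Col1a1 from 3956 to 2007 and Col1a2 from 5717 to 3569. Col4a1 went from 454 to 234 and Col4a2 from 272 to 136. Type VI genes were lower as well, with Col6a1 at 723 and 414, Col6a2 at 720 and 440.0 and Col6a3 at 468 and 285. The largest ratios were Col4a5 at 1.22, Col14a1 at 0.954 and Col8a1 at 0.906, so Col14a1, the gene of F1 and F3, stayed at 551 and 526.

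Here, too, the makeup of the fibroblasts differed between the libraries, and its part in the ratios was not tested. F4 made up 20.8% and 10.3% of fibroblast-like cells, F2 24.7% and 16.1%, and F3 5.92% and 17.4%. With equal cluster weights 3 members in place of 19 were lower, and the fibrillar ratio was 0.728. Within clusters fibrillar chains stood at 0.729 in F1, 0.675 in F2, 0.586 in F3 and 0.774 in F4, below 1 in all 4. With a mitochondrial limit of 5% type IV chains stood at 1.06, and at 0.539 with the 10% names kept. With the hematopoietic-like level subtracted the fibrillar ratio was 0.403. For Col3a1 that level was 30.4% of the fibroblast-like one in OVX_E2_P4_PBDE and 5.38% in OVX_E2_P4.

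The comparison of OVX_E2_P4_PBDE with OVX_E2_PBDE addresses progesterone under PBDEs. The fibrillar ratio was 0.857 (0.848 to 0.866) and the type IV ratio 0.856 (0.810 to 0.905), whereas without PBDEs the same ratios for progesterone were 1.08 and 1.53. The difference between these effects was not tested. Of 25 members Col8a1 was higher, at 2.23 times, and Col13a1 and Col6a6 lower, at 0.611 and 0.643, against 6.33% and 3.4% of 10088 genes. The median log2 ratio was −0.23 over members and 0.00 over all genes. Among the extremes Col5a3 stood at 0.751, Col4a5 at 1.36 and Col12a1 at 1.14. Both libraries of this comparison had PBDE food and the same run of library numbers.

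The same libraries marked the ends of the range for most main chains in fibroblast-like cells. Col5a1 stood at 186 in OVX, 222 in OVX_E2, 282 in OVX_E2_P4, 200.0 in OVX_E2_PBDE and 152 in OVX_E2_P4_PBDE. In the same order Col5a2 stood at 398, 514, 687, 404 and 348, and Col5a3 at 187, 149, 205, 135 and 102. OVX_E2_P4 was the highest and OVX_E2_P4_PBDE the lowest library for each of these genes, as it was for Col3a1, Col1a1, Col1a2, Col4a1, Col4a2 and Col15a1 among the genes followed here. Col18a1 was an exception, at 18.6, 46.6, 66.3, 40.5 and 34.1, lowest in OVX, as was Col14a1, at 634, 501, 551, 523 and 526, highest in OVX. Collagen as a whole made up 1.65%, 2.16%, 2.40%, 1.5% and 1.29% of fibroblast-like UMIs.

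In basal-like cells the summed type IV chains, Col4a1, Col4a2 and Col4a5 were lowest in OVX. Type IV chains summed to 249 CPM in OVX, 464 in OVX_E2, 751 in OVX_E2_P4, 433 in OVX_E2_PBDE and 414 in OVX_E2_P4_PBDE. The ratio was 1.86 (1.5 to 2.34) for E2 over OVX, 1.62 (1.45 to 1.81) for P4 added, 0.934 (0.824 to 1.06) for PBDEs with E2, 0.551 (0.489 to 0.620) for PBDEs with both hormones and 0.956 (0.838 to 1.09) for P4 under PBDEs. Col4a1 stood at 88.7, 250, 384, 196 and 189 in the same order of libraries, and Col4a2 at 78.9, 151, 275, 143 and 146. For both genes the highest level was in OVX_E2_P4, as in fibroblast-like cells, while the lowest was in OVX and not in OVX_E2_P4_PBDE. Col4a6 differed, at 37.0, 25.3, 27.9, 37.8 and 36.3, lowest in OVX_E2. With the hematopoietic-like level subtracted the type IV ratio was 3.6 with E2 and 0.661 for PBDEs with E2. For Col4a1 that level was 80.7 in OVX, 15.2 in OVX_E2 and 97.0 in OVX_E2_PBDE. The ratio for PBDEs with E2 was 1.21 without the barcodes of the highest Scrublet scores and 1.37 with collagens among the variable genes.

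Basal-like cells of OVX differed from those of OVX_E2 in Col4a1 by 2.81 times (1.98 to 4.11), Col18a1 by 3.31 and Col7a1 by 1.99 times, all higher with E2. The lowest ratios were Col1a2 at 0.498, Col6a1 at 0.575 and Col12a1 at 0.626, of which the first 2 were highest in fibroblast-like cells. Fibroblast markers summed in basal-like cells to 2556 CPM in OVX and 1317 in OVX_E2, and their part in these ratios was not tested. Of 15 members counted 6 were higher and 3 lower, against 15.9% and 22.2% of 3066 genes, with a median log2 ratio of 0.50 against −0.09 over all genes. OVX had 60 basal-like cells and 36 Col4a1 UMIs in them.

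With P4 added, 6 of 19 members were higher in basal-like cells and 0 lower, against 4.74% and 9.75% of 4638 genes, and the median was 0.33 against −0.11. Col4a2 at 1.82, Col7a1 at 1.73 and Col4a5 at 1.73 led. The smallest were Col12a1 at 0.906, Col18a1 at 0.97 and Col5a1 at 1.01. Col7a1 stood at 37.0 in OVX, 73.8 in OVX_E2, 127 in OVX_E2_P4, 56.8 in OVX_E2_PBDE and 42.9 in OVX_E2_P4_PBDE, the same high library as in fibroblasts.

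With PBDEs added to E2, 7 of 19 members were lower and 0 higher, against 15.5% and 6.65% of 4394 genes. The median was −0.42 against −0.19. Among the 8 members with their highest level in fibroblast-like cells 5 were lower, beside 2 of the other 11. Col1a1 at 0.430, Col18a1 at 0.434 and Col12a1 at 0.505 were lowest, and Col4a6 at 1.5, Col4a5 at 1.48 and Col16a1 at 1.21 highest. With PBDEs added to both hormones, 14 of 19 were lower and 1 higher, against 14.4% and 7.5% of 4451 genes, with a median of −0.90 against −0.10. Of these 19 members 7 had their highest level in fibroblast-like cells, and 6 of the 7 were lower, beside 8 of the other 12. The 7 include the type I and III genes, whose basal-like levels were not read as production. Summed fibrillar chains in basal-like cells stood at 0.472, near the fibroblast-like 0.522. Col7a1 at 0.337, Col3a1 at 0.370 and Col17a1 at 0.420 were lowest. Col8a1, the L-Hor gene, was highest at 4.25 (2.33 to 8.12), followed by Col4a6 at 1.30 and Col6a2 at 0.948.

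With P4 under PBDEs, 2 of 18 members were higher in basal-like cells and 1 lower, against 5.13% and 5.99% of 4171 genes, with a median of −0.05 against −0.04. Col8a1 at 2.30, Col6a2 at 1.63 and Col1a1 at 1.30 were highest and Col16a1 at 0.638, Col17a1 at 0.747 and Col7a1 at 0.757 lowest. Col17a1 stood at 108 in OVX, 83.2 in OVX_E2, 107.5 in OVX_E2_P4, 60.4 in OVX_E2_PBDE and 45.1 in OVX_E2_P4_PBDE, lowest in both PBDE libraries. Genes that mark either luminal lineage summed in basal-like cells to 1267 CPM in OVX, 1475 in OVX_E2, 1762 in OVX_E2_P4, 4053 in OVX_E2_PBDE and 3865 in OVX_E2_P4_PBDE. Basal markers summed to 13292, 10249, 9851, 6885 and 5663 in the same order. Luminal markers were thus higher and basal markers lower in both PBDE libraries, and their part in the basal-like ratios, that of Col8a1 included, was not tested.

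**Figure D4:**
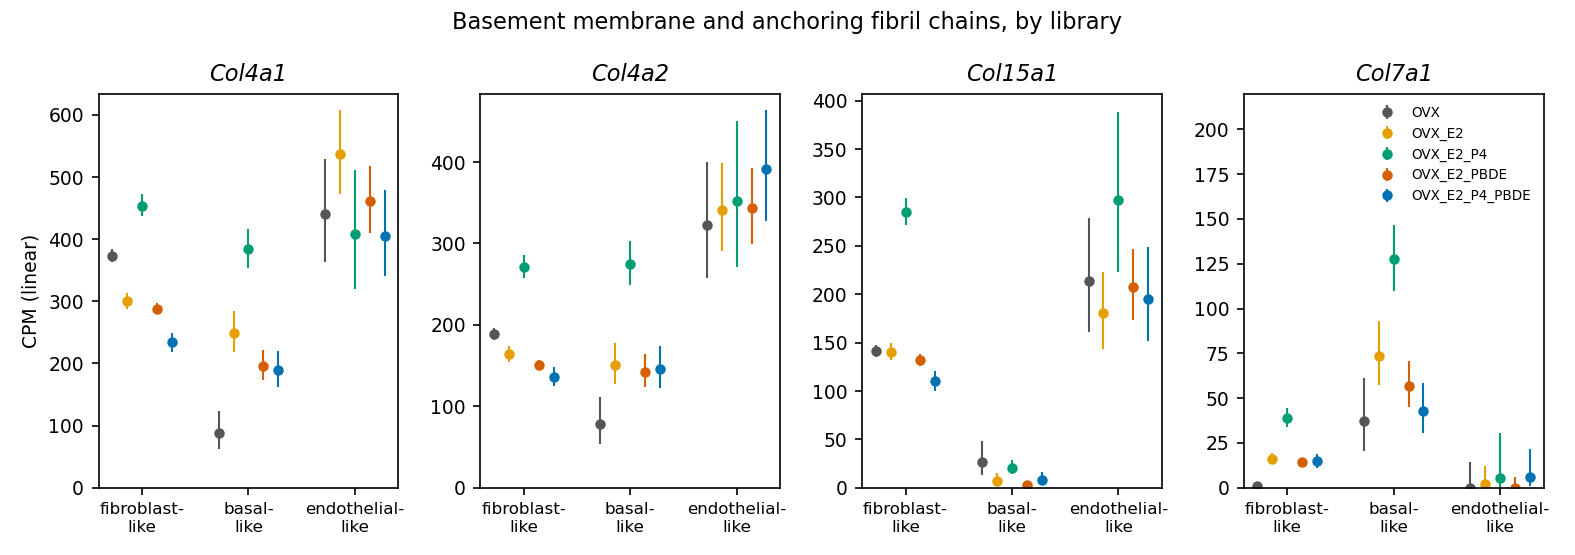
Levels of Col4a1, Col4a2, Col15a1 and Col7a1 in fibroblast-like, basal-like and endothelial-like cells, 1 point per library with its 95% counting interval, in CPM on linear axes. Col4a1 in basal-like cells runs from 88.7 in OVX to 384 in OVX_E2_P4, endothelial-like Col4a2 stays between 323 and 391, and Col7a1 is low in endothelial-like cells.

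In endothelial-like cells the type IV genes were nearly level over the libraries. Type IV chains summed to 779 in OVX, 888 in OVX_E2, 804 in OVX_E2_P4, 817 in OVX_E2_PBDE and 812 in OVX_E2_P4_PBDE, and the ratios of the 5 comparisons lay between 0.905 and 1.14. Col4a2 stood at 323, 341, 353, 344 and 391, Col18a1 at 62.3, 62.2, 77.1, 87.2 and 94.8 and Col13a1 at 272, 215, 248, 257 and 275. Col15a1 was highest in OVX_E2_P4, at 214, 180, 297, 208 and 196. It was 1.65 times as high with P4 and 0.657 times as high with PBDEs added to both hormones.

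The endothelial-like values rested on few barcodes. A single barcode gave 94 of the 250 Col4a1 UMIs of OVX_E2, or 37.6%, and without the barcode with most UMIs the ratio of OVX_E2 to OVX for type IV chains was 0.866 in place of 1.14. In OVX_E2_P4, 26 of the 27 endothelial-like barcodes were among the 20% with the highest Scrublet doublet scores. Without the barcodes of the highest scores, which left almost none of that library, type IV chains stood at 0.342 times with P4. They then stood at 3.22 times with PBDEs added to both hormones.

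Fibrillar genes in endothelial-like cells had a wider range. Fibroblast markers in these barcodes summed to 1514 CPM in OVX, 873 in OVX_E2, 353 in OVX_E2_P4, 1077 in OVX_E2_PBDE and 930 in OVX_E2_P4_PBDE. Col3a1 stood at 397 in OVX, 734 in OVX_E2, 336 in OVX_E2_P4, 565 in OVX_E2_PBDE and 350 in OVX_E2_P4_PBDE. With E2 it was 1.85 times as high, the largest ratio, ahead of Col4a1 at 1.22 and Col1a1 at 1.19. However, 174 of the 342 Col3a1 UMIs of OVX_E2, or 50.9%, came from 1 barcode, which counting intervals do not cover. Col6a3 at 0.692 and Col6a2 and Col13a1 at 0.787 were smallest. With P4 Col1a1 at 0.388, Col3a1 at 0.458 and Col1a2 at 0.654 were smallest, and Col13a1 at 1.16 and Col6a3 at 1.05 followed Col15a1. The part of the fibroblast markers in these ratios was not tested.

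With PBDEs added to E2, endothelial-like Col1a1 at 0.649, Col3a1 at 0.769 and Col4a1 at 0.860 were smallest, and Col6a2 and Col18a1 at 1.40 and Col6a3 at 1.33 largest. With PBDEs added to both hormones Col1a1 at 2.05 (1.17 to 3.81), Col6a1 at 1.51 and Col1a2 at 1.41 were largest, and after Col15a1 the smallest were Col4a1 at 0.996 and Col3a1 at 1.04. With P4 under PBDEs Col3a1 at 0.619, Col6a2 at 0.811 and Col1a2 at 0.832 were smallest, and Col1a1 at 1.23, Col4a2 at 1.14 and Col5a2 at 1.13 largest. The Col1a1 value of OVX_E2_P4 was 16 UMIs, and 20 of the 61 Col1a1 UMIs of OVX_E2_P4_PBDE came from 1 barcode.

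Genes that process and bind collagen were followed in fibroblast-like cells by lists of their roles. Of the 19 genes for prolyl and lysyl hydroxylases and chaperones, 16 or 17 were counted in each comparison, and 1 was higher with E2, 1 with P4 and 1 with P4 under PBDEs, where 8.29%, 4.1% and 6.33% of all genes were. Their median log2 ratio was 0.19 with E2 and 0.01 with P4. With PBDEs 1 was lower beside E2, at a median of −0.20, and 4 beside both hormones, at −0.31, where 8.47% and 9.06% of all genes were lower. Plod2, a lysyl hydroxylase, was 1.66 times as high with E2 and 0.587 times with PBDEs and both hormones, and P4ha3, a prolyl hydroxylase, was 1.72 times as high with P4. Serpinh1, the collagen chaperone HSP47, stood at 0.693 with P4 under PBDEs.

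Of the 12 genes for propeptide removal and cross-linking, 1 was higher and 2 lower with E2, 0 and 2 with P4, 1 and 1 with PBDEs beside E2, 0 and 2 with PBDEs beside both hormones and 0 and 0 with P4 under PBDEs. The shares of all genes given with each comparison of fibroblast-like cells, 1.07% to 8.29% higher and 3.4% to 9.06% lower, are the background of these small counts. Lox, the lysyl oxidase that cross-links fibrils, stood at 0.616 with E2, 1.41 with P4 and 0.485 with PBDEs beside both hormones. Loxl4 stood at 0.522 with E2 and 1.97 with PBDEs beside E2. Of the collagen receptor genes 4 of 7 were counted, and 1, Itga11, was lower with E2 at 0.620, with 0 past the limit in the other comparisons.

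Of the 6 small proteoglycan and fibril-binding genes 5 were counted, and their medians were −0.43 with E2, −0.37 with P4, −0.03 with PBDEs beside E2 and 0.36 with PBDEs beside both hormones, opposite in sign to the collagen median in the first, second and last of these. Single genes went both ways in each of these comparisons. With E2, Tnxb stood at 0.574 and Prelp at 0.715, but Ogn at 1.34 and Aspn at 1.197. With P4, Aspn stood at 0.549 and Prelp at 0.762, but Bgn at 1.31 and Tnxb at 1.14. With PBDEs beside E2, Bgn stood at 0.634 and Tnxb at 1.12. With PBDEs beside both hormones Aspn stood at 1.68 and Bgn, which encodes biglycan, at 0.488, so that Bgn went with the collagens there. These lists share the fibroblast makeup described for F2 and F4, and the part of that makeup in their ratios was not tested.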

How the data were processed

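The deposited files held whole-number UMI counts per gene and barcode from 10x Chromium 3′ v2 libraries, which the authors aligned to mm10 and counted with Cell Ranger 2.0.0 per the labels. The authors' cell calling came before deposit, and values were not normalized. Barcodes with under 500 genes, under 1000 UMIs or over 10% mitochondrial UMIs were left out, which kept 14317 of 14344. Each library was clustered on its own in Seurat 5.3.0 (R 4.3.3) with 2000 variable genes that held no collagen, 10 principal components, 20 neighbours and resolutions of 0.3 (OVX) and 0.5 (other libraries). Clusters were named where the best of the marker scores was at least 0.5, the next at most 0.25, and at least 3 markers were detected, and were otherwise called mixed. Fibroblast-like cells were then scaled within library and clustered together at a resolution of 0.3. Doublets were not removed, and leaving out the 20% of barcodes with the highest Scrublet scores (scanpy 1.11.5, 30 principal components) was an alternative.

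UMIs were summed per library and cell type and divided by that type's total, per 1000000 (CPM). Sums have exact Poisson, shares exact Clopper-Pearson and ratios exact conditional 95% intervals (scipy 1.17.1, Python 3.11.15), which cover counting error only. With 1 library per group no test was made. A gene was counted as higher or lower at 1.5-fold where both libraries together held at least 50 UMIs, after 1 UMI was added to each sum. Shares of cells holding a UMI were taken after thinning every cell to 3000 UMIs, without shallower cells. The ratio code was tested on simulated data. The main chains of types I, III, IV, V, VI, XIV, XV and XVIII are given in every library, with the 3 largest and 3 smallest ratios per cell type and comparison, the 3 leading members per fibroblast cluster, and 2 largest and 2 smallest per list of other genes, of which some are printed. The members, lists and rules were chosen with earlier results of these data known. Alternatives were median-of-ratios scaling, mitochondrial limits, clustering settings, doublets, subtraction of the hematopoietic-like level, fold limits and minimum UMIs.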

Additional observations from a re-analysis of the deposited data

Results flagged for a closer look

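Col1a1 in endothelial-like cells stood on opposite sides of 1 with PBDEs in the absence and presence of progesterone. Its level was 0.649 times as high with PBDEs added to E2 and 2.05 times as high (1.17 to 3.81) with PBDEs added to E2 and P4. OVX_E2_P4 held 16 UMIs. In OVX_E2_P4_PBDE 1 barcode gave 20 of the 61 UMIs, and in OVX_E2 1 barcode gave 29 of the 106, which counting intervals do not cover. The difference between these 2 ratios was not tested, since each group was 1 library. In OVX_E2_P4 fibroblast markers in endothelial-like barcodes were at their lowest, 353 CPM against 873 to 1514 in the other libraries, and 26 of its 27 endothelial-like barcodes were among the 20% with the highest Scrublet scores. Their part in the ratio was not tested.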

How the results depend on the processing

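No paired analysis was possible because each treatment group was 1 library, and cell types were set side by side within libraries as values. Of the values recomputed under alternatives 357 stayed within their limits (1.5 times for counts, 0.25 for median log2 ratios, and the counting interval or 1.2-fold for ratios), 74 moved and 2 were reversed, which means that a ratio past 1.5-fold crossed 1. No value moved with 0.5 UMI added, with shared barcodes left out, at a resolution of 1 or with the 5% mitochondrial limit and the cell names of the 10% limit, the last chosen after seeing the data.

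Reversed were the type IV ratios of fibroblast-like cells with a mitochondrial limit of 5%, 0.764 for P4 added to E2 and 1.06 for PBDEs added to both hormones. Under this limit clusters of 642 fibroblasts in OVX and 322 in OVX_E2_P4 were named mixed, which left 1915 and 610 fibroblast-like cells. There, with E2, 13 members were higher, the median was 0.59, the fibrillar ratio was 1.71 and the type IV ratio crossed 1 from 0.814 to 1.59. With P4, 1 was lower, the median was 0.052 and the fibrillar ratio crossed 1 from 1.08 to 0.803. With PBDEs and both hormones, 9 were lower, at a median of −0.48 and a fibrillar ratio of 0.705, and with P4 under PBDEs 1 was lower. No endothelial-like cluster was found in OVX and OVX_E2_P4 there, so 3 comparisons had no endothelial-like value.

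With equal weight of the fibroblast clusters, 3 members were higher with P4, 0 lower with PBDEs and E2 (fibrillar ratio 0.799), 3 lower with PBDEs and both hormones (median −0.42, fibrillar ratio 0.728) and 1 lower with P4 under PBDEs. With the hematopoietic-like level subtracted, type IV ratios with E2 were 0.979 in fibroblast-like and 3.6 in basal-like cells, and 1 member was lower with P4. With PBDEs and E2, 9 were lower, the median was −0.55, the fibrillar ratio 0.538 and the type IV ratios 0.680 in fibroblast-like and 0.661 in basal-like cells. With PBDEs and both hormones, 1 was higher, the median was −1.25, the fibrillar ratio 0.403 and the type IV ratios 0.333 and 0.372. With P4 under PBDEs 2 were higher and 5 lower. Among the 20% with the highest Scrublet scores were 31 of 87 hematopoietic-like barcodes in OVX, 48 of 56 in OVX_E2 and 74 of 119 in OVX_E2_P4. In OVX_E2_PBDE they were 71 of 119 and in OVX_E2_P4_PBDE 49 of 80. The part of doublets in the level subtracted was not tested.

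With the highest 20% of Scrublet scores left out, endothelial-like type IV ratios were 0.905 with E2, 0.342 with P4, 1.15 with PBDEs and E2 and 3.22 with PBDEs and both hormones, and the basal-like ratio with PBDEs and E2 was 1.21. Collagen shares were then 1.60% in fibroblast-like cells of OVX_E2_PBDE and 0.227%, 0.257% and 0.194% in endothelial-like cells of OVX_E2, OVX_E2_PBDE and OVX_E2_P4. In basal-like cells of OVX, OVX_E2, OVX_E2_PBDE, OVX_E2_P4 and OVX_E2_P4_PBDE they were 0.174%, 0.173%, 0.173%, 0.242% and 0.164%. The endothelial-like values of OVX_E2_P4, and the ratios that use them, come after 26 of its 27 endothelial-like barcodes were left out. Averaged over cells, endothelial-like type IV ratios were 0.923 with E2, 1.12 with P4 and 1.14 with PBDEs and E2, and without the barcode with most UMIs, chosen after seeing the data, 0.866, 1.10 and 1.19.

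With a 2-fold limit, 3 members were higher and 1 lower with E2, 3 higher with P4, 0 lower with PBDEs and E2, 7 lower with PBDEs and both hormones and 0 lower with P4 under PBDEs. With no minimum of UMIs, 16 were higher with E2, 14 higher and 2 lower with P4, 7 lower with PBDEs and E2 and 6 higher with P4 under PBDEs. Median-of-ratios scaling left 1 higher and 1 lower with PBDEs and E2. With collagens among the variable genes the basal-like type IV ratio with PBDEs and E2 was 1.37, 1 member was lower with P4 under PBDEs, and no basal-like cluster was found in OVX_E2_P4_PBDE, so 2 comparisons had no value. Scaled over all libraries together, F3 was not a separate cluster. The cluster with 926 of its 952 cells also held 1117 F1 cells, with fibrillar chains at 6370 and type IV chains at 109 CPM. The cluster with most F4 cells then also held 422 F2 cells. The cause was not tested where none is given, and basal-like and endothelial-like values rest on 60 to 148 and 27 to 72 cells per library.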
